A study of Saccharomyces cerevisiae with 12 samples.

Results

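Budding yeast mutant in the MAP kinase gene SLT2 (slt2) were compared with wild type in the absence of any added compound, with 3 RNA-seq libraries of each strain, which is 6 of the 12 libraries of the study. Both strains have the Saccharomyces cerevisiae BY4741 background, a haploid laboratory strain of mating type a with auxotrophic markers. Per the labels, the 3 libraries of a strain came from separate biological samples, cultures were diluted to an optical density of 0.2 and grown to 0.5, and were then grown for 2 h by the growth text and for 1 h by the treatment text. How SLT2 was inactivated, and whether the mutant was 1 clone, is not given in the sources used here. The other 6 libraries are the same samples of the same strains with 100 µg/ml poacic acid, which acts on the cell wall, for 1 h. They entered the estimate of the spread, and the strain difference in them is given at the end. Values are RPKM, read counts divided by gene length and by the total of the library. Genes with at least 1 RPKM in at least 3 of the 6 untreated libraries were compared, which were 6101 of the 7126 listed, and counts below leave out SLT2 itself (6100 genes).

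Slt2 is the last kinase of the cell wall integrity pathway. Sensors in the plasma membrane signal through the small GTPase Rho1 and the kinase Pkc1 to a cascade of Bck1, Mkk1 or Mkk2, and Slt2. Active Slt2 phosphorylates transcription factors such as Rlm1, which drives many wall genes, and Swi4, a subunit of the G1/S factor SBF. The pathway is known for its response to wall damage, and it is also active at a basal level and at bud growth in undisturbed cells. The comparison therefore shows what the mutant expresses before any stress is applied.

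The library labels fitted the targeted gene. SLT2 (YHR030C, chrVIII:168890-170344, minus strand) read 42.1, 45.8 and 49.99 RPKM in wild type and 0, 0 and 0 RPKM in slt2. These were 645, 372 and 550 reads in wild type and no read in slt2, where the limit that a count of 0 allows (3 reads per library) was 0.258 to 0.427 RPKM. The wild-type mean of 46.0 RPKM was at least 107.5-fold higher than the highest of these limits. LEU2 and URA3, markers deleted in BY4741, had no read in any of the 6 libraries, and MET17 had 1 read in wild-type replicate 2. HIS3, which in BY4741 carries a partial deletion, read 49.98 to 75.02 RPKM. Of 6 genes of a cells, STE2, BAR1, STE6 and AGA2 read 30.7 to 331 RPKM over the 6 libraries, while the short pheromone genes MFA1 and MFA2 held 0 to 5 and 5 to 25 reads. Of 4 genes of alpha cells, STE3 held 2 to 10 reads and MF(ALPHA)1 0 to 2 reads per library, whereas SAG1 held 64 to 216 reads (6.79 to 11.9 RPKM) and MF(ALPHA)2 14 to 25 reads. The 6 libraries held 4825364 to 10532073 reads, of which 76.8 to 79.6% fell in listed genes, and 3 reads in a gene of 1 kb were worth 0.285 to 0.622 RPKM. Across genes, libraries correlated at 0.981 to 0.984 within wild type, 0.980 to 0.987 within slt2 and 0.956 to 0.970 between the strains. The first principal component (52.7% of the variance) separated the strains, and slt2 replicate 3 stood apart from the other slt2 libraries on the second.

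The share of reads in rRNA genes differed between the groups. It was 0.578, 0.0703 and 0.286% in wild type and 3.76, 5.17 and 4.18% in slt2, with means of 0.311 ± 0.255% and 4.37 ± 0.725% (SD, n = 3 each). Every slt2 library lay above every wild-type library, by 4.06 percentage points on average (exact two-sided permutation p = 0.1, the smallest that 3 against 3 allows). These reads lay in the long precursor genes RDN37-1 and RDN37-2, while the genes of the mature 25S, 18S, 5.8S and 5S rRNAs were listed at 0. YLR154W-E, a short open reading frame inside the rDNA, was also higher in every slt2 library, although within slt2 it did not follow the order of the rRNA share. It read 10.2, 0 and 1.94 RPKM in wild type and 24876, 27181 and 6659 RPKM in slt2 (12.33 ± 3.03, adjusted p = 0.0768), and this log2 difference was the largest of all genes tested although it missed the threshold. The libraries were made from rRNA-depleted RNA per the labels, and in the untreated cultures the rRNA share and the strain cannot be told apart.

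**Figure D1:**
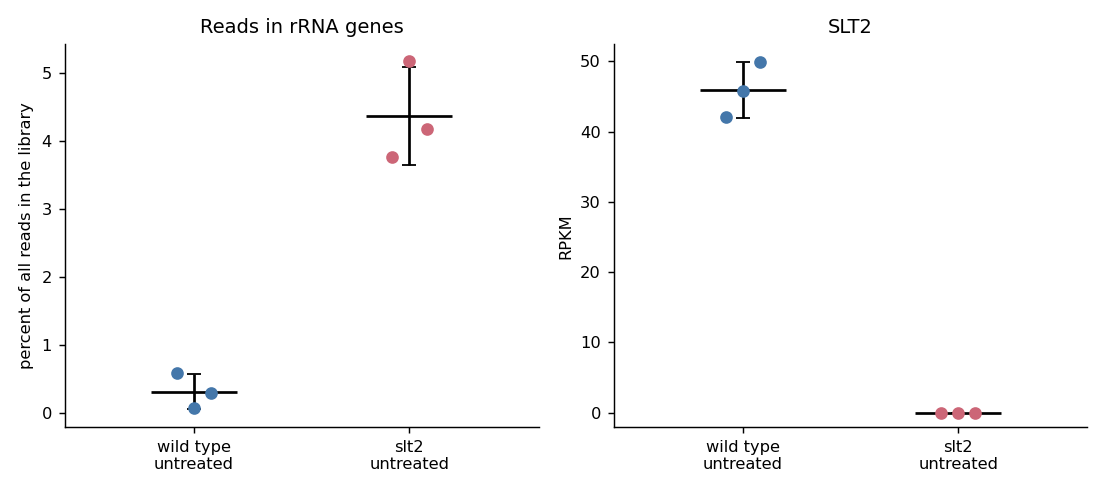
SLT2 level in RPKM and the percent of reads in rRNA genes in each library, as 1 point per library, for the 6 untreated libraries; long lines are group means and bars the SD (n = 3). SLT2 lies between 42.1 and 49.99 RPKM in wild type and at 0 in slt2, and the rRNA share is below 0.6% in wild type and above 3.7% in slt2.

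At an adjusted p under 0.05 (limma on log2(RPKM + 1), Benjamini-Hochberg over all genes tested), 108 of 6100 genes differed between the strains, which is 1.77% (55 higher in slt2, 0.902%, and 53 lower, 0.869%). Most differences were modest. Of the 108, 69 were under 2-fold, and 39 (0.639% of all) were at 2-fold or more, 22 that rose (0.361%) and 17 that fell (0.279%). Of the 108, 102 had an adjusted p above 0.02. The median log2 difference over all genes was −0.08. The 3 slt2 values did not overlap the 3 wild-type values for 2170 genes (35.6%), 698 with slt2 higher (11.4%) and 1472 with slt2 lower (24.1%). All 108 called genes were among these. At an unadjusted p under 0.05 there were 1500 genes (24.6%), 547 higher (8.97%) and 953 lower (15.6%).

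The number of genes called depended on the libraries. A fit of the 6 untreated libraries alone, which takes no spread from the treated cultures, called 740 genes (12.1%), 287 higher (4.70%) and 453 lower (7.43%), and 107 of the 108 were among them in the same direction. In the fit of all groups, 5, 12 and 46 genes were called without wild-type replicate 1, 2 or 3, and 2, 4 and 37 without slt2 replicate 1, 2 or 3. The split of directions also moved with the scaling. It was 55 higher and 53 lower as deposited, 70 and 33 when values were scaled to protein-coding reads, 70 and 31 when scaled by the median ratio, and 57 and 30 after quantile normalization. With the log2 rRNA share as a covariate limma called 0 genes (315 at an unadjusted p under 0.05), all 108 kept their sign, and 94 of the 108 had a smaller difference.

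**Figure D2:**
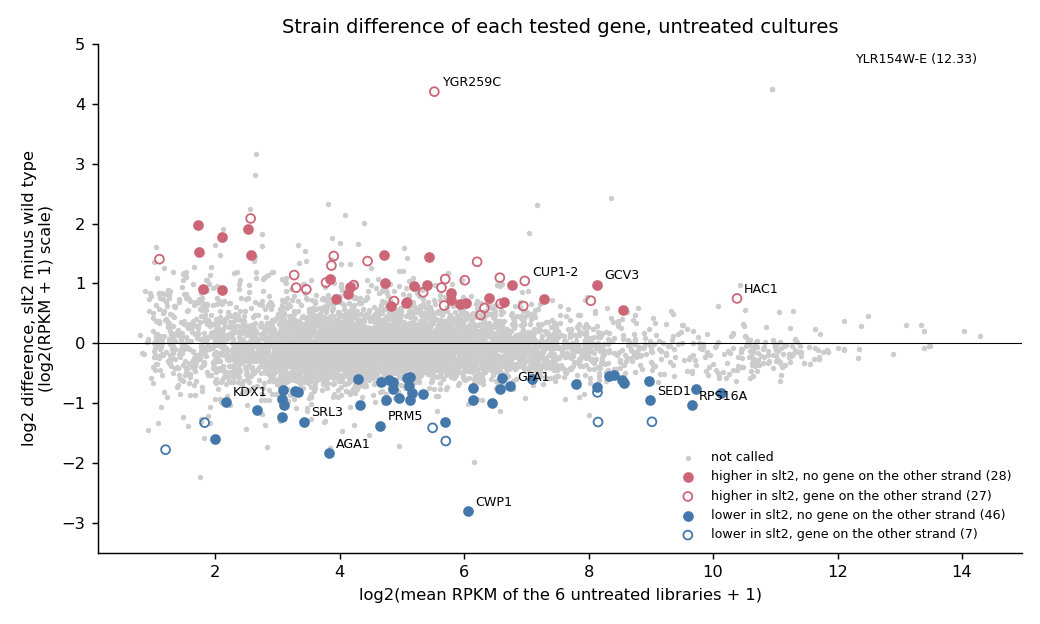
Log2 difference between slt2 and wild type (log2(RPKM + 1) scale) against the log2 mean RPKM of the 6 untreated libraries, 1 point per gene tested; colours mark the 55 genes called higher and the 53 called lower, and open circles those with a listed gene on the other strand. CWP1 is the lowest called gene at −2.80, and YLR154W-E, at 12.33, lies above the plotted range.

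Wall proteins, wall enzymes and pathway components known to be transcribed through Slt2 and Rlm1 were among the genes that fell. Of 28 such genes, 8 were lower in slt2 and 0 higher by limma, against 0.869% lower over all genes. At an unadjusted p under 0.05, 1 was higher and 13 lower, against 8.97 and 15.6% of all genes. The count of called members was 9 with voom on recovered reads, 6 scaled by the median ratio, 5 after quantile normalization, 4 scaled to protein-coding reads, 1 without a filter on low values and 0 with the rRNA share as a covariate. It was 2, 1 and 2 without wild-type replicate 1, 2 or 3, and 0, 1 and 4 without slt2 replicate 1, 2 or 3. Their median log2 difference was −0.32 against −0.08 over all genes (range −2.80 to 0.78). The values did not overlap between the strains for 14 lower members (50%, against 24.1% of all genes) and 2 higher members (7.14% against 11.4%). The list was drawn up with earlier results of these data known, so its count describes these libraries and is no independent evidence of the direction. Its median was −0.26 with values scaled to protein-coding reads and −0.46 with the rRNA share as a covariate.

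CWP1 (YKL096W, chrXI:261132-261851, plus strand), which encodes a mannoprotein linked to wall glucan, had the largest fall of any called gene. It read 146, 92.3 and 107 RPKM in wild type and 11.1, 10.3 and 30.5 RPKM in slt2. All slt2 values were far below the lowest wild-type value, with slt2 replicate 3 the highest of the mutant (−2.80 ± 0.35, adjusted p = 0.00746; ± is the SE throughout). SED1 (chrIV:600793-601809, plus strand), a major structural wall glycoprotein anchored by a lipid, read 675, 584 and 737 RPKM in wild type and 364, 393 and 280.4 RPKM in slt2, without overlap (−0.95 ± 0.21, adjusted p = 0.0414). PRM5 (chrIX:140613-141569, minus strand), a membrane protein induced by wall stress and of unknown function, read 29.6, 39.3 and 35.7 RPKM in wild type and 11.8, 8.79 and 19.5 RPKM in slt2. Its groups were apart, again with slt2 replicate 3 nearest to wild type (−1.38 ± 0.25, adjusted p = 0.0286). SRL3 (chrXI:611525-612265, plus strand), a relative of the G1 repressor Whi5, read 13.3, 14.3 and 15.2 RPKM in wild type and 5.58, 3.93 and 6.15 RPKM in slt2, and the strains were well separated (−1.31 ± 0.25, adjusted p = 0.0317).

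The other called members were a pseudokinase, a phosphatase and wall-related enzymes. KDX1 (YKL161C, chrXI:149386-150687, minus strand), the pseudokinase paralog of SLT2, was low in both strains, with 5.54, 5.23 and 4.06 RPKM in wild type and 2.502, 1.99 and 1.59 RPKM in slt2. Every mutant value lay below every wild-type value (−0.98 ± 0.22, adjusted p = 0.0436). PTP2, a tyrosine phosphatase that acts on Slt2 and on the osmostress kinase Hog1, read 8.89, 12.1 and 8.57 RPKM in wild type and 5.50, 5.46 and 4.78 RPKM in slt2 (−0.78 ± 0.17, adjusted p = 0.0400). GFA1 (chrXI:243220-245373, minus strand), the first enzyme of the pathway that makes the chitin precursor UDP-N-acetylglucosamine, was moderately abundant in both strains. It read 119, 137 and 140.3 RPKM in wild type and 79.97, 76.9 and 82.4 RPKM in slt2, with no overlap (−0.72 ± 0.11, adjusted p = 0.0190). BGL2, a wall glucosyltransferase of high abundance, read 531, 423 and 396 RPKM in wild type and 304, 272 and 301 RPKM in slt2 (−0.61 ± 0.14, adjusted p = 0.0406).

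Some other members differed little. PIR1, a wall protein with internal repeats that binds glucan directly, read 515, 549.6 and 496 RPKM in wild type and 524, 485 and 493 RPKM in slt2, and the groups overlapped (−0.06 ± 0.15, adjusted p = 0.840). Its relative CIS3 read 463, 389 and 352 RPKM in wild type and 404, 388 and 386 RPKM in slt2 (−0.02 ± 0.17, adjusted p = 0.950), and RLM1, the transcription factor itself, read 27.3, 30.1 and 26.4 RPKM in wild type and 27.3, 24.5 and 19.2 RPKM in slt2 (−0.24 ± 0.16, adjusted p = 0.348). For HSP150, a further PIR family member, the difference was −0.23 (adjusted p = 0.433). CHS3, the chitin synthase of the lateral wall, and GSC2, the alternative glucan synthase subunit, missed the threshold narrowly, in opposite directions. CHS3 read 53.5, 55.2 and 58.9 RPKM in wild type and 38.8, 39.8 and 41.8 RPKM in slt2 (−0.47 ± 0.11, adjusted p = 0.0502), and GSC2 read 11.4, 9.92 and 11.1 RPKM in wild type and 19.6, 20.3 and 18.04 RPKM in slt2 (0.78 ± 0.19, adjusted p = 0.0501). Neither overlapped between the strains, and the fit of the 6 untreated libraries called both (adjusted p = 0.0251 and 0.0103).

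**Figure D3:**
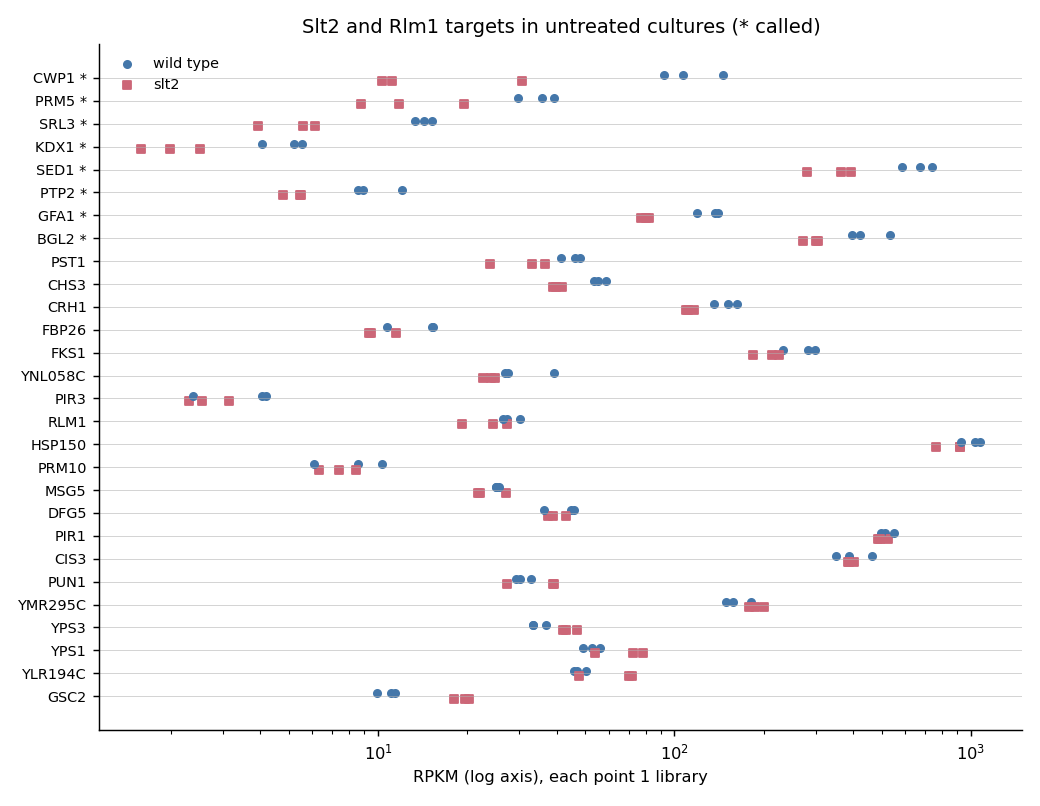
RPKM of the Slt2 and Rlm1 target genes in each untreated library (log axis), 1 point per library, with circles for wild type, squares for slt2, asterisks on called genes, and genes ordered by log2 difference. CWP1, with wild type at 92.3 to 146 and slt2 at 10.3 to 30.5 RPKM, is separated most, and the values of PIR1 and CIS3 overlap.

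Promoters were searched for the outer letters of the Rlm1 motif, CTA and TAG, on both strands in the 300 bases from 250 before to 50 after each ATG of the R64 genome. The search allowed any 4 bases between them, so these inner bases were not compared with the motif. The letters were present in 334 of 6075 promoters (5.50%), in 4 of the 28 targets (14.3%), in 5 of 52 genes called lower (9.62%) and in 1 of 55 called higher (1.82%). The 5 sites of the target genes are shown because 3 of the 4 genes (BGL2, SRL3 and PTP2) were called lower, whereas HSP150, with a pair of sites, was not called; capitals mark the match and the sequences are 5′ to 3′ on the strand of the gene, from RefSeq.
HSP150 (chrX:120216-120245, plus strand, match starting at −223 from the ATG): acattttgagCTAAATTTAGattttggtca
HSP150 (chrX:120411-120440, plus strand, match starting at −28 from the ATG): tattccttttCTAACCCTAGtacaataata
BGL2 (chrVII:1058924-1058953, minus strand, match starting at −219 from the ATG): atatgcagttCTATTTTTAGtaaaagaaac
SRL3 (chrXI:611386-611415, plus strand, match starting at −129 from the ATG): gaacaggagcCTAAGAATAGagaataagga
PTP2 (chrXV:733873-733902, plus strand, match starting at −42 from the ATG): atccccagtgCTATTAATAGtttacaataa
A match is a description of the letters and not of binding, and CWP1 and GFA1, with the smallest adjusted p-values of the set, held no match in this window.

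Upstream of Slt2 no gene was called. None of the 6 sensor genes was called by limma (1 at an unadjusted p under 0.05, 0 with voom), and their median difference was −0.05 (range −0.23 to 0.25). SLG1, which encodes the main sensor Wsc1, read 84.5, 88.8 and 98.4 RPKM in wild type and 116, 103 and 104 RPKM in slt2, without overlap but short of the threshold (0.25 ± 0.11, adjusted p = 0.191). Among Rho1, its regulators and Pkc1, 0 of 10 were called (0 at an unadjusted p under 0.05, 0 with voom). Their median was −0.23 against −0.08 over all genes, and 3 lay lower without overlap (30% against 24.1%). RHO1 itself read 294, 326 and 293 RPKM in wild type and 303, 284 and 286 RPKM in slt2 (−0.06 ± 0.10, adjusted p = 0.723). The 8 kinases, transcription factors and scaffolds tested of the module held 1 call, KDX1, with BCK1 at 0.03, MKK1 at −0.07 and MKK2 at −0.05 on the log2 scale. SWI4 differed by −0.46 (adjusted p = 0.210), with overlap. Of 7 phosphatases that act on MAP kinases, PTP2 was called. PTC1, a phosphatase of the Hog1 arm, read 22.7, 26.2 and 27.98 RPKM in wild type and 16.4, 18.9 and 17.1 RPKM in slt2 and narrowly missed the threshold (−0.52 ± 0.13, adjusted p = 0.0516; 0.0322 in the 6 untreated libraries). MSG5, the phosphatase of Slt2 and Fus3, read 24.997, 25.1 and 25.6 RPKM in wild type and 26.9, 22.1 and 21.7 RPKM in slt2, and its groups overlapped (−0.10 ± 0.14, adjusted p = 0.678).

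Enzymes that build and remodel the wall were in part lower. Of 19 crosslinking enzymes and glucanases, 3 were lower and 0 higher (0.869% lower over all genes), namely BGL2, EXG1 and UTR2. EXG1, the major exo-glucanase, read 376, 338 and 338 RPKM in wild type and 217, 236 and 181 RPKM in slt2, and all slt2 libraries lay far below wild type (−0.73 ± 0.15, adjusted p = 0.0317). UTR2, which links chitin to glucan, read 407, 424 and 367 RPKM in wild type and 292, 273 and 259 RPKM in slt2, without overlap (−0.54 ± 0.10, adjusted p = 0.0317). Its relative CRH1 read 162, 152 and 136 RPKM in wild type and 116, 109 and 111 RPKM in slt2 and was not called (−0.41 ± 0.14, adjusted p = 0.111; 0.0342 in the 6 untreated libraries), and the sporulation member CRR1 differed by −0.05 (adjusted p = 0.858). Without overlap were 7 lower (36.8% against 24.1% of all genes) and 3 higher members (15.8% against 11.4%), and the median was −0.17. Of 17 chitin genes 1 was lower, GFA1, while 9 lower (52.9% against 24.1% of all genes) and 1 higher (5.88% against 11.4%) were without overlap (median −0.22). None of the 16 genes of glucan synthesis was called (2 higher and 2 lower at an unadjusted p under 0.05, 1 with voom, median −0.06). FKS1, the main synthase subunit, read 299, 233 and 283 RPKM in wild type and 185, 213 and 226 RPKM in slt2, with every slt2 value below wild type (−0.38 ± 0.15, adjusted p = 0.139). Of the 5 glucan elongases, 0 were called (2 lower at an unadjusted p under 0.05, 0 with voom). GAS1, the most abundant of them, read 835, 855 and 752 RPKM in wild type and 619.9, 645 and 753 RPKM in slt2, with wild-type replicate 3 level with slt2 replicate 3 (−0.28 ± 0.12, adjusted p = 0.178).

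Wall proteins as a class did not move together. Of 37, 3 were lower (CWP1, SED1 and AGA1, 8.11% against 0.869% of all genes) and 0 higher (against 0.902%). Without overlap were 6 higher (16.2% against 11.4% of all genes) and 9 lower members (24.3% against 24.1%). The median was 0.11, and −0.30 with the rRNA share as a covariate, so its sign depended on that setting. The spread ran from −2.80 to 2.43. FIT3, a wall mannoprotein of the iron regulon, was at the upper end with 144, 139 and 44.1 RPKM in wild type and 665, 655 and 326 RPKM in slt2. The mutant values were all above wild type, but wild-type replicate 3 and slt2 replicate 3 were each far below their groups and the difference was not called (2.43 ± 0.85, adjusted p = 0.132). CCW12, the most abundant of the list, read 9349, 7514 and 6820.1 RPKM in wild type and 8836, 10053 and 10217 RPKM in slt2, with overlap (0.31 ± 0.14, adjusted p = 0.182).

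Genes of the mating response of a cells lay mostly at lower levels in slt2. AGA1 (YNR044W, chrXIV:703699-705876, plus strand), the anchor subunit of the a-cell agglutinin and the only called member of 27, read 26.8, 16.4 and 20.52 RPKM in wild type and 3.85, 5.65 and 6.09 RPKM in slt2. The lowest wild-type value was far above the highest in slt2 (−1.84 ± 0.38, adjusted p = 0.0374). Over the list, 0 were called higher and 1 lower (1 and 17 at an unadjusted p under 0.05, against 8.97 and 15.6% of all genes). Without overlap, 21 lay lower (77.8% against 24.1% of all genes) and 1 higher, and the median difference was −0.56 against −0.08 over all genes (−0.49 scaled to protein-coding reads, −0.25 with the rRNA share as a covariate). In the 6 untreated libraries 11 were called lower and 1, MFA1, higher, against 7.43 and 4.70% of all genes in that fit. STE2, the receptor of the alpha pheromone, read 281, 331 and 319.5 RPKM in wild type and 170.03, 160.4 and 184 RPKM in slt2, with the strains far apart but short of the threshold (−0.85 ± 0.25, adjusted p = 0.0863; 0.00710 in the 6 untreated libraries). SST2, which shuts off the receptor's G protein, read 59.9, 57.9 and 64.8 RPKM in wild type and 29.6, 30.7 and 37.9 RPKM in slt2 (−0.88 ± 0.22, adjusted p = 0.0585). FUS1, a cell fusion gene, read 21.2, 20.1 and 20.7 RPKM in wild type and 10.9, 10.1 and 13.7 RPKM in slt2, also without overlap (−0.79 ± 0.22, adjusted p = 0.0744). FUS3, the MAP kinase of this pathway, overlapped, at 58.2, 61.4 and 53.9 RPKM in wild type and 60.6, 49.7 and 56.98 RPKM in slt2 (−0.05 ± 0.13, adjusted p = 0.828). MFA1, a gene of the a pheromone, rested on 0 to 5 reads per library.

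The letters of the pheromone response element bound by Ste12, TGAAACA, were in 450 of 6075 promoters (7.41%) on either strand and in 16 of the 27 mating genes (59.3%), but in 4 of 52 genes called lower (7.69%), near the share of all promoters. FUS3, given above with overlap between the strains, also held a match, starting at −156 from the ATG. Shown, with the match in capitals, are the sites of AGA1, SST2, STE2 and FUS1, given above as lower.
AGA1 (chrXIV:703486-703515, plus strand, match starting at −202 from the ATG): acataattttcTGAAACAatattaaaacat
SST2 (chrXII:1041587-1041616, minus strand, match starting at −245 from the ATG): aatttTGAAACAatgatcccaatactgctt
STE2 (chrVI:82372-82401, plus strand, match starting at −197 from the ATG): taagtacatgaTGAAACAcatatgaagaaa
FUS1 (chrIII:71605-71634, plus strand, match starting at −187 from the ATG): tggtgcgatgaTGAAACAaacatgaaacgt
FUS1 (chrIII:71632-71661, plus strand, match starting at −160 from the ATG): cgtctgtaattTGAAACAaataacgtaatt
The other motifs searched were near their share of all promoters in genes called lower, with 3 of 52 for the SBF letters CGCGAAA (5.77% against 3.51%) and 1 of 52 for the MBF letters ACGCGT (1.92% against 3.03%).

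Cell cycle and differentiation lists held no call by limma. This was so for 26 G1/S genes of SBF and MBF (0 higher and 2 lower at an unadjusted p under 0.05, median −0.11), 11 genes of replication licensing (0 and 3, −0.16), 19 mitotic genes (0 and 3, −0.27), 13 daughter-separation genes (1 and 2, −0.24), 12 filamentation genes (0 and 1, −0.12) and 11 histone genes (0 and 2, −0.27). Voom called 0 in each of these lists. HTB1, a histone H2B gene, read 350.1, 296 and 280.2 RPKM in wild type and 224, 216 and 179.5 RPKM in slt2, without overlap (−0.58 ± 0.16, adjusted p = 0.0768). WHI5, the repressor of SBF that Cln3 relieves, was higher, with 30.3, 25.4 and 45.9 RPKM in wild type and 58.7, 66.2 and 65.8 RPKM in slt2. Its groups were apart (0.93 ± 0.22, adjusted p = 0.0472), and it overlaps a listed open reading frame on the other strand. SPC25, a kinetochore subunit, read 36.2, 44.1 and 42.9 RPKM in wild type and 65.8, 70.5 and 67.5 RPKM in slt2 (0.72 ± 0.13, adjusted p = 0.0286). WHI5, SPC25, and the genes of the following paragraphs that belong to no list were named after their values were seen.

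The following secretory genes belong to no list except those of the unfolded protein response, and were picked from the called genes. ERV14 (chrVII:400871-401287, minus strand), a cargo receptor of vesicles that leave the endoplasmic reticulum (ER), read 94.5, 60.1 and 63.7 RPKM in wild type and 22.8, 31.8 and 30.3 RPKM in slt2, without overlap (−1.32 ± 0.23, adjusted p = 0.0286). TCA17, a subunit of a tethering complex at the Golgi, read 10.8, 14.04 and 7.78 RPKM in wild type and 3.82, 3.53 and 4.51 RPKM in slt2 (−1.23 ± 0.23, adjusted p = 0.0286). BOS1, a SNARE of transport from the ER to the Golgi, differed by −0.57 ± 0.12, adjusted p = 0.0380. YIP1, which binds Rab proteins, differed by −0.71 ± 0.16, adjusted p = 0.0436, and SYS1, a Golgi membrane protein, by −0.91 ± 0.19, adjusted p = 0.0320. SHR3, the ER chaperone of amino acid permeases, read 164, 162 and 163 RPKM in wild type and 102, 115 and 104 RPKM in slt2 (−0.60 ± 0.14, adjusted p = 0.0472). LST7, a gene of permease sorting and nutrient signalling, read 10.8, 10.6 and 10.3 RPKM in wild type and 4.12, 5.33 and 4.55 RPKM in slt2, with tight groups (−1.04 ± 0.23, adjusted p = 0.0391). In the opposite direction HAC1 (chrVI:75179-76147, plus strand), the transcription factor of the unfolded protein response, read 879.7, 986 and 1124 RPKM in wild type and 1899.6, 1646 and 1481 RPKM in slt2, with every slt2 value above wild type (0.75 ± 0.14, adjusted p = 0.0311). It was the only call among 17 genes of that response and ER chaperones (median −0.09, with 29.4% higher and 35.3% lower without overlap, against 11.4 and 24.1% of all genes). KAR2, the main ER chaperone and a target of Hac1, read 414, 391 and 499 RPKM in wild type and 379, 395 and 418 RPKM in slt2, with overlap (−0.12 ± 0.12, adjusted p = 0.558), and HAC1 shares part of its length with a listed open reading frame on the other strand.

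Metabolic pathways held few called genes each. GCV3 (chrI:57950-58462, minus strand), the H subunit of the glycine cleavage system, had 1 of the smallest adjusted p-values. It read 181, 179.8 and 202 RPKM in wild type and 368, 347 and 396 RPKM in slt2, with the groups far apart (0.98 ± 0.13, adjusted p = 0.00470). GCV1, the T subunit of the same complex, read 35.99, 30.2 and 50.5 RPKM in wild type and 68.9, 58.5 and 80.6 RPKM in slt2 (0.84 ± 0.18, adjusted p = 0.0380), and GCV2 read 34.8, 30.2 and 43.5 RPKM in wild type and 40.6, 41.9 and 52.9 RPKM in slt2, with overlap (0.32 ± 0.15, adjusted p = 0.214). GCV3 and GCV1 were the only calls among 57 amino acid synthesis genes.

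In sulfur metabolism 1 of 32 genes was higher and 2 lower (median −0.03). STR3, a cystathionine lyase on the way to methionine, read 1.63, 1.15 and 1.51 RPKM in wild type and 3.14, 3.82 and 3.71 RPKM in slt2 (0.91 ± 0.20, adjusted p = 0.0407). MHT1, which remakes methionine from S-methylmethionine, was lower in all mutant libraries, with 11.8, 12.5 and 11.1 RPKM in wild type and 6.55, 6.14 and 6.16 RPKM in slt2 (−0.81 ± 0.14, adjusted p = 0.0261). CYS4, the first enzyme from homocysteine to cysteine, read 415, 386 and 343 RPKM in wild type and 248, 246 and 288 RPKM in slt2 (−0.55 ± 0.12, adjusted p = 0.0380). The proline permease gene PUT4 was low but separated, with 2.17, 1.81 and 2.11 RPKM in wild type and 4.99, 4.38 and 4.51 RPKM in slt2 (0.90 ± 0.20, adjusted p = 0.0407). IMD3, an enzyme of GTP synthesis, read 266, 277 and 269.5 RPKM in wild type and 147, 166 and 198 RPKM in slt2 (−0.68 ± 0.15, adjusted p = 0.0406), and PRS3, a subunit of the synthase of phosphoribosyl pyrophosphate, read 114, 124 and 111 RPKM in wild type and 74.02, 76.98 and 80.9 RPKM in slt2. Both were lower without overlap (−0.58 ± 0.10, adjusted p = 0.0286 for PRS3).

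Called lipid genes went in both directions. FAS1, the beta subunit of fatty acid synthase, read 506, 468 and 425 RPKM in wild type and 270.2, 288 and 322 RPKM in slt2 (−0.67 ± 0.13, adjusted p = 0.0317), and ELO2, an elongase of very long fatty acids, read 134, 111 and 112 RPKM in wild type and 70.9, 64.8 and 73.2 RPKM in slt2, both without overlap (−0.76 ± 0.17, adjusted p = 0.0400). ISC1, which cleaves complex sphingolipids, read 52.04, 45.7 and 51.3 RPKM in wild type and 80.4, 79.9 and 77.5 RPKM in slt2 (0.67 ± 0.14, adjusted p = 0.0380), and ARE1, a sterol acyltransferase gene that overlaps listed genes on the other strand, was higher by 0.47 ± 0.10, adjusted p = 0.0400. Of 17 phospholipid genes FAS1 was the single call (median −0.12), and of 28 ergosterol genes 0 were called (4 higher and 4 lower at an unadjusted p under 0.05, 0 with voom). PHO3, a secreted acid phosphatase, was higher, with 77.6, 48.7 and 95.9 RPKM in wild type and 152, 137 and 134 RPKM in slt2 (0.97 ± 0.19, adjusted p = 0.0317). The metallothionein gene CUP1-2 lies wholly opposite the listed gene YHR054W-A, which averaged 76.5 RPKM in wild type and 60.5 RPKM in slt2 (−0.43, adjusted p = 0.380). CUP1-2 read 68.4, 77.98 and 98.8 RPKM in wild type and 182, 153 and 168 RPKM in slt2 (1.04 ± 0.21, adjusted p = 0.0318). Its near-identical copy CUP1-1 read 80.7, 79.9 and 113 RPKM in wild type and 187, 138 and 178 RPKM in slt2 (0.88 ± 0.22, adjusted p = 0.0616), and how reads were divided between the copies is not given in the sources used here.

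Of 137 ribosomal protein genes, 4 were lower (2.92%, against 0.869% of all genes) and 0 higher. The calls were 1 by median-ratio scaling or quantile normalization and 22 in the 6 untreated libraries, 20 of them lower. That last fit called 7.43% of all genes lower. Without overlap were 38 lower (27.7%, near the 24.1% of all genes) and 4 higher, and the median was −0.16 against −0.08 over all genes (−0.09 scaled to protein-coding reads). RPS16A, of the small subunit, read 1196, 1094 and 964 RPKM in wild type and 434, 624 and 541 RPKM in slt2, with all mutant values far below wild type (−1.03 ± 0.15, adjusted p = 0.0114). RPL30 read 1724, 1376 and 1185 RPKM in wild type and 625, 920.2 and 875 RPKM in slt2 (−0.83 ± 0.18, adjusted p = 0.0391), RPS17B read 1039, 1071 and 1065 RPKM in wild type and 577, 624 and 676 RPKM in slt2 (−0.76 ± 0.18, adjusted p = 0.0472), and RPL22B read 91.9, 88.3 and 81.4 RPKM in wild type and 51.9, 46.1 and 57.8 RPKM in slt2 (−0.74 ± 0.17, adjusted p = 0.0418). RPS16A and RPS17B have near-identical copies, so the split of reads between copies is uncertain for them. Of 69 ribosome assembly genes 0 were called by limma and 0 with voom, and their median was −0.23. At an unadjusted p under 0.05, 4 were higher and 22 lower, against 8.97 and 15.6% of all genes. Lower without overlap were 29 (42.0% against 24.1% of all genes). In the 6 untreated libraries 14 were called, 11 of them lower, against 7.43% of all genes called lower. Of 34 proteasome genes 0 were called (1 higher and 14 lower at an unadjusted p under 0.05, 0 with voom), against 15.6% lower at that level over all genes. Of the 34, 19 lay lower without overlap (55.9% against 24.1% of all genes), 8 were called lower in the 6 untreated libraries (against 7.43% of all genes), and the median was −0.20. With the rRNA share as a covariate these medians were −0.10, −0.03 and −0.10.

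Mitochondrial genes moved in both directions. QCR8, a subunit of the respiratory bc1 complex, read 28.7, 20.7 and 28.3 RPKM in wild type and 10.5, 12.5 and 13.1 RPKM in slt2 and was the single call of 40 nuclear respiratory genes (−1.03 ± 0.17, adjusted p = 0.0224). MPC1, a subunit of the mitochondrial pyruvate carrier, read 35.8, 39.2 and 28.3 RPKM in wild type and 15.6, 20.2 and 16.3 RPKM in slt2 (−0.94 ± 0.21, adjusted p = 0.0406). COA3 and PET117, assembly factors of cytochrome oxidase, and PET122 were called higher and belong to no list of these genes. COA3 read 66.6, 58.997 and 59.97 RPKM in wild type and 115, 96.6 and 104 RPKM in slt2 (0.76 ± 0.16, adjusted p = 0.0374), PET117 read 12.3, 8.84 and 13.1 RPKM in wild type and 22.4, 24.5 and 21.1 RPKM in slt2 (0.95 ± 0.17, adjusted p = 0.0286), and PET122, which activates translation of COX3 mRNA, read 25.6, 27.4 and 30.8 RPKM in wild type and 49.5, 56.1 and 47.9 RPKM in slt2 (0.85 ± 0.16, adjusted p = 0.0311). None of the 3 overlapped between strains, and PET122 has a listed neighbour on the other strand. MRPL8 was the only call, higher (0.66 ± 0.13, adjusted p = 0.0317), of 68 mitochondrial ribosomal proteins (median −0.10).

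Genes of the mitochondrial genome were lower in 16 of 17 cases by sign, and 12 lay lower without overlap (70.6% against 24.1% of all genes). The intron-encoded AI5_BETA (Q0075), which read 3.83, 3.70 and 7.57 RPKM in wild type and 0.941, 1.06 and 0.778 RPKM in slt2, was the single call by limma (−1.59 ± 0.32, adjusted p = 0.0320), and the 6 untreated libraries gave 10 lower (against 7.43% of all genes). COB, the cytochrome b gene, read 149, 126 and 113 RPKM in wild type and 44.1, 69.7 and 62.6 RPKM in slt2 (−1.14 ± 0.46, adjusted p = 0.165). The median of the list was −0.71, −0.05 with the rRNA share as a covariate and 0.12 in the treated cultures. The share of all reads in the mitochondrial genome was 0.217 ± 0.0284% in wild type and 0.147 ± 0.0137% in slt2 (SD, n = 3 each; exact two-sided permutation p = 0.1). Fewer organelles per cell and less RNA per organelle cannot be told apart in such bulk RNA.

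The iron regulon and general stress genes had medians above that of all genes, without a call. Of 27 iron genes under Aft1 and Aft2, limma called 0, and voom called 0. At an unadjusted p under 0.05, 10 were higher and 1 lower, against 8.97 and 15.6% of all genes. Without overlap, 12 lay higher (44.4% against 11.4% of all genes) and 1 lower. In the fit of the 6 untreated libraries 9 were called higher and 1 lower, against 4.70 and 7.43% of all genes. The median was 0.43, 0.50 scaled to protein-coding reads and 0.39 with the rRNA share as a covariate. FET3, the multicopper ferroxidase of iron uptake, read 584, 566 and 431 RPKM in wild type and 800.4, 721 and 747 RPKM in slt2, without overlap (0.53 ± 0.16, adjusted p = 0.0817; 0.0346 in the 6 untreated libraries). FTR1, its permease partner, read 239.8, 216 and 224 RPKM in wild type and 309, 300.1 and 359.7 RPKM in slt2 (0.51 ± 0.16, adjusted p = 0.0926). ENB1, a transporter of the iron carrier enterobactin, read 103, 104 and 74.8 RPKM in wild type and 153, 159 and 117 RPKM in slt2 (0.61 ± 0.26, adjusted p = 0.170).

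Among 41 general stress genes 0 were called by limma and 0 with voom, and the median was 0.33 (range −0.56 to 1.66). At an unadjusted p under 0.05, 9 were higher and 2 lower, against 8.97 and 15.6% of all genes. HSP12, a small membrane stress protein, read 9.21, 9.23 and 3.61 RPKM in wild type and 45.9, 36.8 and 7.54 RPKM in slt2. In slt2, replicates 1 and 2 were high, while replicate 3 fell within wild type (1.66 ± 0.68, adjusted p = 0.172). The same library was the lowest of the mutant for GLK1, a glucokinase gene, with 173, 147 and 259 RPKM in wild type and 317, 324 and 170.4 RPKM in slt2 (0.47 ± 0.30, adjusted p = 0.346). Medians of the other stress lists, each with 0 calls by limma, were 0.03 for 25 cytosolic chaperones (3 higher and 1 lower at an unadjusted p under 0.05), −0.01 for 21 oxidative stress genes (0 and 4), 0.18 for 27 osmostress genes (6 and 2) and 0.13 for 17 calcineurin genes (2 and 1). With voom these held 0, 0, 0 and 1 calls.

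Several further lists held no call by limma, and none with voom. Their medians, with the genes higher and lower at an unadjusted p under 0.05, were 0.02 for 16 multidrug transport genes (3 and 1), −0.07 for 24 mannosylation genes (0 and 3) and 0.15 for 12 eisosome genes (2 and 1). In carbon metabolism they were 0.12 for 25 glycolytic genes (4 and 1), 0.04 for 18 tricarboxylic acid cycle genes (2 and 1), 0.15 for 18 hexose transport genes (0 and 0) and 0.10 for 27 glucose-repressed genes (1 and 0). They were 0.08 for 14 DNA damage genes (2 and 2) and −0.10 for 19 genes of meiosis and spores (0 and 1). COS7, of a subtelomeric family with near-identical members, was the only call of 17 subtelomeric genes, with 9.81, 10.3 and 9.87 RPKM in wild type and 5.44, 4.07 and 4.86 RPKM in slt2. It was lower without overlap (−0.93 ± 0.21, adjusted p = 0.0406).

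**Figure D4:**
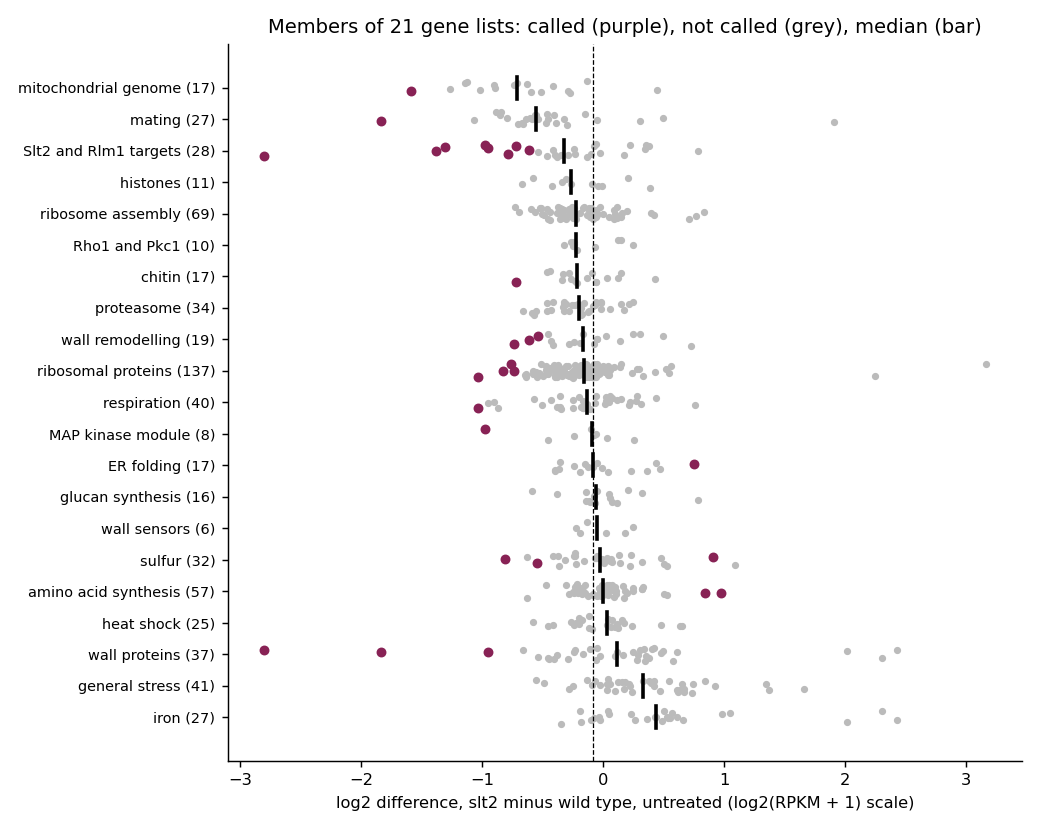
Log2 difference between untreated slt2 and wild type (log2(RPKM + 1) scale) of the members of selected gene lists, 1 point per gene, with the list median as a bar, called genes in purple, the number tested in brackets and the median of all genes as a dashed line. The Slt2 and Rlm1 targets (median −0.32) and the mating genes (−0.56) lie below 0 and the iron regulon (0.43) above it.

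Many of the genes called higher were short, little studied or overlapped another gene. Of the 55 genes called higher, 27 (49.1%) overlapped a listed gene on the other strand, against 14.2% of all genes tested, and 27 (49.1% against 19.1%) had no gene symbol. Their median length was 543 bp against 1164 bp over all genes, and their median GC content was 47.5% against 39.7%, whereas the 53 genes called lower had 942 bp and 38.6%. The library kit is directional per the labels, but whether reads were counted by strand is not given in the sources used here, so reads of such a pair cannot be told apart. The largest rise was YGR259C (chrVII:1012481-1012921, minus strand), which lies almost wholly opposite TNA1, a nicotinic acid permease gene. It read 4.09, 0 and 16.8 RPKM in wild type and 86.4, 64.96 and 97.3 RPKM in slt2, with a wide spread within wild type (4.20 ± 0.84, adjusted p = 0.0424; 0.0615 in the 6 untreated libraries), while TNA1 read 105, 89.1 and 115 RPKM in wild type and 70.9, 85.1 and 84.4 RPKM in slt2 (−0.35 ± 0.14, adjusted p = 0.150). YAL019W-A, opposite ATS1, read 1.499, 0.628 and 1.62 RPKM in wild type and 7.03, 6.81 and 11.998 RPKM in slt2 (2.09 ± 0.38, adjusted p = 0.0286), and YKL030W, opposite the malic enzyme gene MAE1, read 30.9, 26.9 and 40.2 RPKM in wild type and 63.7, 68.1 and 75.2 RPKM in slt2 (1.07 ± 0.21, adjusted p = 0.0317). ATS1 and MAE1 were higher too, short of the threshold (0.91, adjusted p = 0.0585, and 0.85, adjusted p = 0.0517). Of 20 called genes with at least 0.5 of their length opposite a tested gene, 13 had a partner whose difference had the same sign.

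Other large rises shared this position. They were YDR094W, YOR053W, YOR218C, YKL147C, YBL096C, YAL042C-A and the rRNA methyltransferase gene BUD23, whose log2 differences ran from 1.05 for YAL042C-A to 1.46 for YOR218C. Those with no listed gene on the other strand were LSO1, YOR072W-A, YBR126W-B, YJL133C-A and YLR236C. YJL133C-A (chrX:159623-159847, minus strand) had the smallest adjusted p after SLT2, with 21.5, 21.5 and 24.1 RPKM in wild type and 72.4, 61.9 and 53.4 RPKM in slt2 (1.43 ± 0.17, adjusted p = 0.00352). YBR126W-B read 11.2, 12.4 and 14.7 RPKM in wild type and 46.98, 35.97 and 30.2 RPKM in slt2, well apart (1.48 ± 0.22, adjusted p = 0.0126). LSO1, a small gene of the iron response, read 0.673, 1.27 and 0.938 RPKM in wild type and 6.66, 5.17 and 5.14 RPKM in slt2 (1.77 ± 0.33, adjusted p = 0.0286). Its wild-type values rested on only a few reads per library, and the log2 difference was 0.84 with a pseudocount of 5 and 2.31 with 0.25. Some frames opposite ribosomal protein genes fell. BUD28, opposite RPL22A, read 58.5, 82.4 and 93.1 RPKM in wild type and 25.2, 19.3 and 28.5 RPKM in slt2 (−1.63 ± 0.35, adjusted p = 0.0407), while RPL22A itself differed by −0.13 (adjusted p = 0.610). OPI11, opposite RPL43A, read 67.3, 54.1 and 72.1 RPKM in wild type and 26.2, 23.3 and 21.1 RPKM in slt2 (−1.41 ± 0.23, adjusted p = 0.0224), and RPL43A differed by 0.24 (adjusted p = 0.232). YPL142C opposite RPL33A (log2 difference −1.32) and YLR339C opposite RPP0 (−1.31) were lower too. Restricted to genes with no listed gene on the other strand, an added analysis called 72 genes, 28 higher and 44 lower.

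Near SLT2 on chromosome VIII some genes were higher and others were not. Of 6 listed genes on either side of SLT2 on its chromosome, 1 was called, YHI9 (16.7%, against 1.77% of all genes), and their median was 0.15. YHI9, the adjacent gene at lower coordinates (chrVIII:167677-168561, minus strand), read 20.7, 22.3 and 20.8 RPKM in wild type and 36.7, 34.4 and 29.3 RPKM in slt2, without overlap (0.63 ± 0.13, adjusted p = 0.0380). RRM3, on the other side, read 13.5, 12.9 and 14.4 RPKM in wild type and 17.3, 13.6 and 16.1 RPKM in slt2, with overlap (0.19 ± 0.15, adjusted p = 0.434). ERC1 read 73.2, 73.9 and 79.99 RPKM in wild type and 107, 99.5 and 98.8 RPKM in slt2, without overlap (0.42 ± 0.11, adjusted p = 0.0705; 0.0291 in the 6 untreated libraries). YHR033W (chrVIII:175548-176819, plus strand), named after its value was seen, read 22.6, 24.1 and 24.7 RPKM in wild type and 50.7, 48.9 and 41.5 RPKM in slt2 (0.95 ± 0.16, adjusted p = 0.0270). DAP2 and RPN1, beyond YHI9, differed by −0.30 and −0.33 (adjusted p = 0.208 and 0.0966). The rest of the list, PUT2, DNA2 and THR1, differed by −0.12, 0.02 and 0.11 (adjusted p = 0.533, 0.948 and 0.652). Chromosome VIII as a whole had a median of −0.04 over 285 genes, and nuclear chromosomes ran from −0.13 (VII) to 0.05 (I).

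The strain difference was larger for many wall genes once poacic acid was present. In the treated cultures 504 of 6100 genes (8.26%) were called, and the difference between the treated and the untreated strain difference passed the threshold for 105 (1.72%). The treated libraries come from the same samples as the untreated ones, and both comparisons share an estimate of the spread. The treated result is therefore not independent of the untreated one. Among the 28 Slt2 and Rlm1 targets the treated cultures had 20 lower and 3 higher, a median of −1.37 against −0.32 untreated, and 16 for which the change of the difference was called. KDX1 went from −0.98 untreated to −4.74, adjusted p = 1.67e-08 treated (change −3.77, adjusted p = 3.34e-05). PIR3, not called untreated at −0.29, was at −3.84, adjusted p = 1.33e-05 treated (change −3.55, adjusted p = 0.00216). GFA1 changed from −0.72 to −2.70, adjusted p = 5.70e-09 (change −1.98, adjusted p = 3.34e-05). CWP1, by contrast, was at −2.80 untreated and −3.68, adjusted p = 3.48e-05 treated, and the change did not pass the threshold (−0.88, adjusted p = 0.549). PTP2, at −0.78 and −1.73, adjusted p = 1.80e-05, and BGL2, at −0.61 and −1.28, adjusted p = 2.95e-05, did not pass it either.

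Outside the wall some called differences were near 0 or of the opposite sign in the treated cultures. Of the 108 called genes, 95 had the same sign in the treated cultures and 29 were called there in the same direction. MHT1, lower without compound (−0.81), was higher with it (0.90, adjusted p = 6.99e-04; change 1.71, adjusted p = 3.06e-04). QCR8 went from −1.03 to 0.09, adjusted p = 0.801 (change 1.12, adjusted p = 0.0296). STR3 was higher in both, at 0.91 and 2.38, adjusted p = 4.73e-06 (change 1.47, adjusted p = 0.0170). PHO3, higher untreated at 0.97, was at −0.46, adjusted p = 0.173 treated (change −1.43, adjusted p = 0.0161). ERV14 and AGA1, called lower untreated, were at −0.05 and −0.12 in treated cultures, and for neither did the change pass the threshold (adjusted p = 0.0743 and 0.158). The rRNA share of the treated libraries was 2.09, 0.0752 and 3.83% in wild type and 4.92, 4.60 and 4.79% in slt2.

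**Figure D5:**
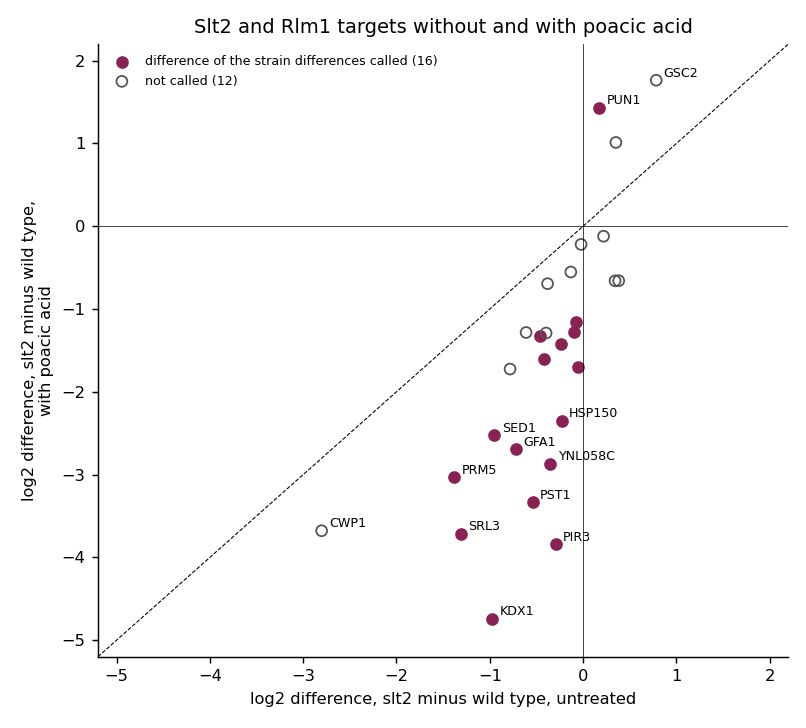
Log2 strain difference (slt2 minus wild type, log2(RPKM + 1) scale) of the Slt2 and Rlm1 targets with poacic acid (y axis) against without it (x axis), 1 point per gene, with a dashed line for equal differences; filled points mark the 16 genes whose change of the difference was called. KDX1 is the lowest with the compound, CWP1 is the lowest without it, and GSC2 and PUN1 lie above the dashed line.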

How the data were processed

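RNA-seq values of 12 yeast libraries, 3 per group, were a table deposited by the authors as RPKM per the file headers, with decimal commas read as points. Libraries came from rRNA-depleted RNA with a directional kit per the labels, and the genome build was R64 per the submitters' processing notes. The sources used here do not give the aligner, the counting program, strand use or the handling of multiple matches. Reads were recovered from RPKM and exon length (99.4 to 99.6% of values under 200 reads were whole within 0.02 reads in the 6 untreated libraries), and total reads were 4825364 to 10532073. The ± values hold the spread between libraries, while the floors for a count of 0 cover counting error only.

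Genes with at least 1 RPKM in 3 of the 6 untreated libraries were put on the log2(RPKM + 1) scale. The model was limma 3.58.1 in R 4.3.3 (intensity trend and robust steps on), fitting each of the 4 groups of the 12 libraries by its mean; adjusted p is Benjamini-Hochberg over all 6101 genes, with a threshold of 0.05. Fold changes on this scale understate those of low genes. Python 3.11.15 with pandas 2.3.3, scipy 1.17.1 and matplotlib 3.10.9 did the rest. The code was tested on simulated data.

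Named genes were the 15 largest rises and falls of at least 2-fold without overlap and with at least 5 RPKM in the higher group (18 and 14 genes qualified), up to 6 called members of each list by adjusted p, all members of lists of 12 or fewer, and SLT2, its neighbours and markers. Genes outside this rule, among them STE2, SST2, FUS1, CHS3, GSC2, PIR1, CIS3, FET3, HSP12 and the secretory genes, were picked once their values were known. The members and the 52 lists were chosen with earlier results of these data known. Promoters were read from the RefSeq R64 genome, since no promoter table was given; the plan had foreseen such a table. 22 planned settings and 8 added after seeing the data were tried.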

Additional observations from a re-analysis of the deposited data

Results flagged for a closer look

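Of 330 genes described, 28 had a strain difference with poacic acid that differed from the one without it, against 105 of 6100 over all genes without SLT2 (1.72%). This was by the test of that change itself (limma, Benjamini-Hochberg over all genes, adjusted p under 0.05). That test took the 12 libraries as unpaired, although treated and untreated libraries come from the same samples. The 330 were the called genes, the named genes and members of lists chosen with earlier results of these data known. All values here are the treated minus the untreated strain difference on the log2 scale. The change was more negative for 23 and more positive for 5.

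Among targets of Slt2 and Rlm1 and other wall genes it was −3.77 for KDX1, −3.55 for PIR3, −2.79 for PST1, −2.52 for YNL058C, −2.41 for SRL3 and −2.12 for HSP150. It was −1.98 for GFA1, −1.65 for PRM5, −1.64 for PIR1, −1.57 for SED1, −1.20 for PCM1 and −1.19 for CRH1. RLM1 had −1.18, MSG5 −1.18, CHS7 −1.17, DFG5 −1.08, EXG1 −1.04 and CHS3 −0.85. PUN1, a membrane protein of the SUR7 family, went the other way, with 1.26. SLT2 itself had −2.01, a value set by its wild-type level in each condition and by the pseudocount, since slt2 was at 0 untreated.

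Outside the wall the change was −1.64 for AFR1, a regulator of pheromone adaptation, −1.43 for PHO3, −1.26 for YJL195C and −0.94 for JEM1, an ER cochaperone. It was 1.04 for HTB1, 1.12 for QCR8, 1.47 for STR3 and 1.71 for MHT1. Their cause was not tested. The rRNA share of wild type also differed between the conditions, with 0.0703 to 0.578% untreated and 0.0752 to 3.83% treated.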

How the results depend on the processing

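The 108 calls (55 higher, 53 lower) became 740 (287 higher, 453 lower) in the 6 untreated libraries alone, 1166 (431 higher, 735 lower) with library weights, 66 (36 higher, 30 lower) without the trend and robust steps, 10 (4 higher, 6 lower) without a filter on low values and 0 (0 higher, 0 lower) with the rRNA share as a covariate. The lower calls were 33, 31 and 30 after scaling to protein-coding reads, by the median ratio and by quantiles. Other pseudocounts, a 5 RPKM filter, coding genes only, voom and a correlation within a culture (0.177) gave 102 to 117. Leaving out 1 library gave 2 to 46 calls (2 to 28 higher, 0 to 18 lower) in the fit of all groups. The same in the untreated libraries alone, added after seeing the data, gave 436 (163 higher, 273 lower), 184 (91 higher, 93 lower) and 580 (277 higher, 303 lower) without wild-type replicates 1, 2 and 3, and 144 (67 higher, 77 lower), 230 (94 higher, 136 lower) and 645 (293 higher, 352 lower) without slt2 replicates 1, 2 and 3. Also added, weights in the 6 untreated libraries gave 1072 (413 higher, 659 lower), and genes without overlap on the other strand gave 72 (28 higher, 44 lower). Over 1244 list members and called genes and the 30 settings, no called gene changed sign, and PHO11 and SPL2, not called in the report, passed the threshold with the other sign without slt2 replicate 3 in the untreated libraries alone.

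Replicate numbers did not pair the strains (correlations of same-numbered deviations across 6101 genes −0.05, −0.04 and 0.02). A replicate block gave 139 (67 higher, 72 lower) in 12 libraries and 549 (252 higher, 297 lower) in the 6 untreated ones. The planned rRNA share over RDN25 and RDN18 alone gave no value, as both are listed at 0. With 3 libraries a group no exact test can pass 0.05, and differences of low genes are limited by depth: 1 read per kb of gene was worth 0.0949 to 0.207 RPKM. The causes of these changes were not tested.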
